A study of Mus musculus with 6 samples.

Results

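The genes described here surround Mphosph8, the gene deleted in this study, on mouse chromosome 14. They are the genes whose annotated start in GENCODE M21 (GRCm38) lies between 53700000 and 59700000 on that chromosome, with Mphosph8 itself left out, and that held at least 30 counts summed over the 6 libraries. Of 316 genes that start in this interval, 105 met the minimum and 211 did not, of which 146 had no count in any library and 65 had fewer counts than the minimum. Each library listed 54532 gene identifiers, of which 18536 reached the same minimum. The rule uses position and the counts summed over both genotypes, so a gene can meet it through 1 genotype alone. Trdc, Mhrt and Gm31251 held at least 30 counts in the 3 mutant libraries together and fewer in the 3 controls. The genes just inside the minimum were the pseudogene Gm4032 with 30 counts, the testis kinase gene Tssk4 with 30 and the photoreceptor factor gene Nrl with 31, and those just outside were Gm10366 with 25, the T cell receptor segment Trav3-4 with 24 and the mast cell protease gene Mcpt4 with 22.

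RNA of whole mouse brains at postnatal day 14 was sequenced in 3 control and 3 mutant libraries on the C57BL/6J strain. Per the labels, the controls were Mphosph8 fl/+ Nestin-Cre+ and the mutants Mphosph8 fl/fl Nestin-Cre+ (labelled Mphosph8∆n), so that both groups carried the recombinase transgene and at least 1 floxed chromosome. The study's text names the controls by the transgene alone, and the labels were followed. Nestin-Cre is active in neural progenitors and the cells they give rise to, so blood, vessel wall and microglial cells of the brain lie largely outside its reach. The allele came from a targeted embryonic stem cell clone in which an exon of Mphosph8 is flanked by loxP sites, and was bred on C57BL/6J. The strain of the stem cells is not given in the sources used here.

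MPP8, the product of Mphosph8, binds histone H3 trimethylated at lysine 9 and is a subunit of the HUSH complex, which silences transgenes, repeats and some genes. In mice made from targeted stem cells, the DNA that flanks the targeted allele is inherited with it, so the genes around it can differ between genotypes through the parental chromosome they lie on as well as through the deletion. Here the mutants carried the floxed chromosome on both copies and the controls on 1, and the effects of the linked chromosome and of the deletion on these genes cannot be told apart. The interval itself is rich in genes of unlike function. On its centromere side it holds the end of the T cell receptor alpha and delta locus, the cardiac myosin genes Myh6 and Myh7 and many housekeeping genes, and beside Mphosph8 lie the connexin genes Gjb2 and Gjb6 and the zinc finger genes Zmym2 and Zmym5.

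Of the 105 genes, 91 are annotated as protein coding, 5 as antisense, 2 as bidirectional promoter lncRNA, 2 as lincRNA, 1 as a processed transcript, 2 as T cell receptor constant genes and 2 as transcribed processed pseudogenes. The libraries held 12956880 to 15223424 counts. Control replicate 3 stood apart from the other libraries by its sex-linked transcripts, with 3641 counts on Y-linked genes and 27 on Xist, against 0 to 1 and 11130 to 17697 in the other libraries. The labels give no sex. The study's methods describe its mice as littermates matched for age and sex, which the sex-linked counts of this library against the mutants do not bear out, and calls are given with and without it. Neither source ties a library to a litter, so litter could not enter the fit. The p-values weigh the difference between genotypes against the spread between libraries of a group.

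The promoters of 2 genes are shown as a description. The first is that of Mphosph8, which is also the nearest stretch to the pseudogene Gm4032 on the opposite strand, whose annotated start at 56668124 lies inside it. The second is that of Myh7, the gene of the interval that was called in every alternative fit run. Both are RefSeq windows of GRCm38.p6 from 250 bases before to 50 bases after the start, written 5′ to 3′ along the gene's strand. The Mphosph8 window is chr14:56667998-56668297 on the plus strand, and its capitals mark the box CCAAT read on the opposite strand. The Myh7 window is chr14:54994500-54994799 on the minus strand, and its capitals mark TATATA.
Mphosph8: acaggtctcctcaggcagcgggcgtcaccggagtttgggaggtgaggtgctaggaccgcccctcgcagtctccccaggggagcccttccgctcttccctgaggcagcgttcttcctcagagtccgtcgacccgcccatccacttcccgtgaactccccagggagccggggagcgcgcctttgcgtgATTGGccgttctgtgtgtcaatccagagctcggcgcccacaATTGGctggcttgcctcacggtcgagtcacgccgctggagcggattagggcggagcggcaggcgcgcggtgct
Myh7: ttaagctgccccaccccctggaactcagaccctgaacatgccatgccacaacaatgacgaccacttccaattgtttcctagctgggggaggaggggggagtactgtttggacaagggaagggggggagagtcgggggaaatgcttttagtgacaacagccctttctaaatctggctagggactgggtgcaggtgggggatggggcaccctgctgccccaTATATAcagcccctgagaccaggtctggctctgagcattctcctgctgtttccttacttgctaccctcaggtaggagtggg
The Mphosph8 window held 28 CpG dinucleotides and 67% G and C, against a median of 7 CpG over the 32851 RefSeq windows, and the Myh7 window held 2 CpG and 56.3% G and C. The CCAAT matches began 64 and 23 bases before the Mphosph8 start, and 37.4% of all windows held this motif on either strand. The single TATATA match began 31 bases before the start used for this Myh7 window, and 5.67% of all windows held it on either strand. These matches are descriptions of the sequence and not sites of binding.

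The deleted gene itself serves to check the labels. Mphosph8 (ENSMUSG00000079184, chromosome 14, 56668248 to 56697430, plus strand) had 55.8, 48.6 and 70.7 CPM (counts scaled to the library size, adjusted by the TMM method) in the controls and 33.1, 27.2 and 26.5 CPM in the mutants. Every mutant library was below every control library. The fitted log2 fold change of mutant over control was -1.02 ± 0.12 (SE, n = 3 per group), with an adjusted p of 0.000157 in edgeR's quasi-likelihood test. The count covers the whole gene, so reads from outside the floxed exon enter it. By the labels the controls also carried 1 floxed copy together with Nestin-Cre. The fold change is therefore not one against an intact gene.

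Of the 105 genes around it, 93 passed edgeR's filter on low counts and were tested. Of these, 3 were called at an adjusted p under 0.05, all of them higher in the mutants and all by more than 2-fold, and none was called lower. They were Myh7, the T cell receptor delta constant gene Trdc, and Gm43305, a processed transcript of unknown function. The 3 calls are 3.23% of the genes tested around Mphosph8, against 0.628% of all 16731 genes tested (0.532% called higher, 0.359% called and over 2-fold). Among genes with at least 30 counts in each group, which leaves out Trdc and Mhrt, 2 of 91 were called, or 2.2%, beside 0.564% of all 16311 such genes, and 7 reached an unadjusted p under 0.05, or 7.69% beside 6.22%. Without control replicate 3, only Myh7 was called (1 of 94 genes tested), beside 66 of all 17067 genes tested in that fit, or 0.387%. The rest of chromosome 14 gave 4 calls among 468 genes tested, or 0.855%. By biotype, 1 of 84 protein-coding genes tested was called, or 1.19% beside 0.51% of all protein-coding genes tested, and 2 of 9 others, or 22.2% beside 1.4%. Among these others are Trdc, 1 of the 2 calls, and Mhrt, which both met the 30-count minimum through the mutants alone. The share of the other biotypes is thus partly set by that minimum. At an unadjusted p under 0.05 there were 9 genes, or 9.68% against 6.51% of all genes tested. They were 7 higher and 2 lower, where 4.09% and 2.41% of all genes tested were so. Without control replicate 3 they were 7 higher and 4 lower, without mutant replicate 1 they were 8 and 4, and without control replicate 1 they were 8 and 0. The groups did not overlap for 15 genes, or 16.1% against 11.6% of all genes tested. Every mutant library was above the controls for 9 and below for 6, where 6.23% and 5.42% of all genes tested were so. Neighbouring genes share their libraries, so no p is attached to these shares.

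Most of the interval differed little between genotypes, as did most genes tested. Log2 fold changes ranged from -0.32 to 2.71, and 83 of the 93 lay within 0.25 of 0, beside 14098 of all 16731. Positive values were found for 44 genes and negative values for 49. The median log2 fold change was -0.009, beside -0.007 over all genes tested and 0.004 over the rest of chromosome 14. The median absolute log2 fold change was 0.097, beside 0.090 and 0.089. The 95% interval of the fold change lay within 2-fold in both directions for 85 of the 93 genes and within 1.5-fold for 78. Over all 16731 genes tested it did so for 15309 and 12430.

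**Figure D1:**
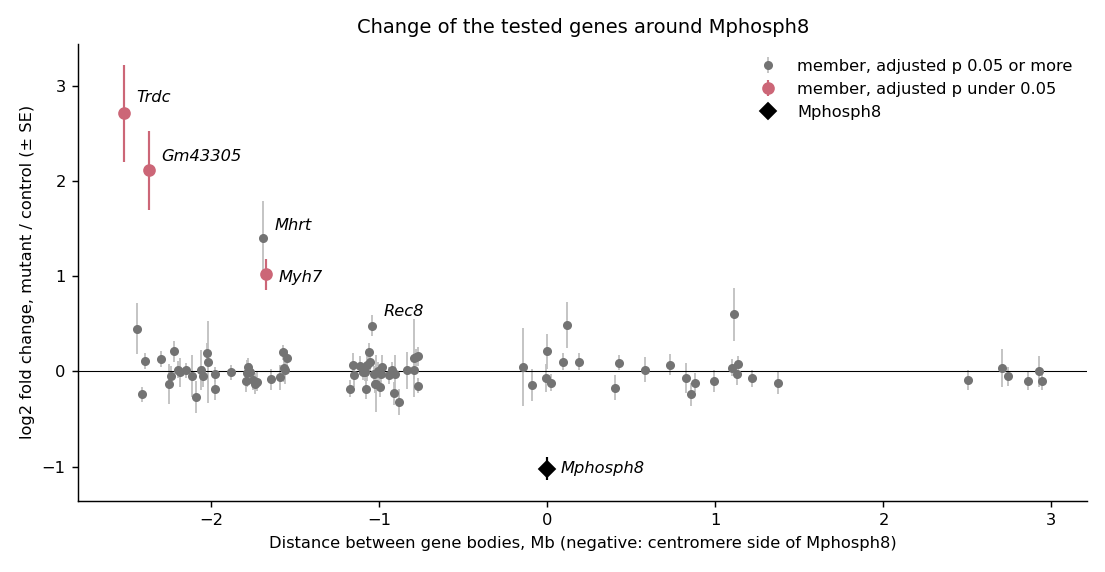
Log2 fold change of mutant over control (y axis, bars ± SE) for the 93 genes tested, by the distance in Mb between the gene and Mphosph8 (x axis, negative on the centromere side). Red points are the 3 genes with an adjusted p under 0.05, all over 1 Mb away on the centromere side, grey points are the other genes and the black diamond is Mphosph8 at -1.02.

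Distance from Mphosph8 was compared next, since a difference tied to the floxed allele would be sought first among its nearest genes. Of 10 genes tested within 0.5 Mb, 0 were called and 0 reached an unadjusted p under 0.05. Between 0.5 and 1 Mb, 20 were tested, 0 were called and 1 reached an unadjusted p under 0.05, Adcy4. Between 1 and 2 Mb, 39 were tested, 1 was called and 5 reached an unadjusted p under 0.05. Beyond 2 Mb, 24 were tested, 2 were called and 3 reached it. Over all genes tested, 0.628% were called and 6.51% reached an unadjusted p under 0.05. At these shares most sets of 10 to 24 genes would hold no call. All 3 called genes were more than 1 Mb from Mphosph8 and on its centromere side, where 68 genes were tested. None of the 24 tested on the telomere side was called. Whether the distances differ in their share of calls was not tested. The median absolute log2 fold change was 0.113, 0.086, 0.078 and 0.100 in the 4 bins from near to far. Across the 93 genes, Spearman's rho between distance and absolute log2 fold change was -0.05, a description over genes that share libraries. The 3 called genes were all weakly expressed. Of 28 genes with a mean under 10 CPM, 3 were called, against 0 of 65 with a mean of 10 CPM or more. Over all genes tested, 0.835% of those under 10 CPM were called and 0.512% of the others.

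The genes beside Mphosph8 are of most interest for a local effect of the allele. Gm4032 starts 123 bases from Mphosph8 and is transcribed away from it. It held 8, 6 and 7 counts in the controls and 1, 3 and 5 in the mutants, too few for the main test. Every mutant library was below every control library. With all genes of at least 30 counts in the fit, its log2 fold change was -1.06 ± 0.57 (SE, n = 3 per group), with an adjusted p of 0.832 in edgeR. On the other end lies Gm16973, a lincRNA on the opposite strand whose exons overlap the last part of Mphosph8. It had 5.92, 8.79 and 6.61 CPM in the controls and 6.40, 10.2 and 7.92 CPM in the mutants. The groups overlapped, and the log2 fold change was 0.21 ± 0.18 with an adjusted p of 0.933 in edgeR. Of its words of 50 bases, 12.3% are also found in Mphosph8 on the other strand. Whether the counting used strand is not stated by the sources. Of genes lying in full within opposite-strand exons, 27.6% held at least 10 counts, against 0.145% within same-strand exons. Genes on opposite strands were thus largely counted apart. How fully this held for the reads of this pair was not tested.

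Parp4, which encodes the poly(ADP-ribose) polymerase of vault particles and ends 8.5 kb before Mphosph8, had 7.11, 9.37 and 8.37 CPM in the controls and 7.12, 7.84 and 8.65 CPM in the mutants. The groups overlapped nearly fully, giving a log2 fold change of -0.07 ± 0.15 and an adjusted p of 0.984 in edgeR. Pspc1, which encodes a paraspeckle RNA-binding protein and lies 23.3 kb beyond Mphosph8, had 45.2, 42.3 and 48.1 CPM in the controls and 41.2, 42.7 and 40.6 CPM in the mutants. Its groups overlapped in 1 library each, the log2 fold change was -0.12 ± 0.09 and the adjusted p was 0.906. Its 95% interval ran from 0.809-fold to 1.04-fold.

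The zinc finger genes Zmym5 and Zmym2 had small positive log2 fold changes that did not pass the test. Zmym5 had 36.8, 42.0 and 44.1 CPM in the controls and 42.4, 44.9 and 44.6 CPM in the mutants, and Zmym2, which encodes a subunit of a histone deacetylase complex, had 62.5, 66.9 and 71.9 CPM against 64.7, 77.3 and 73.9 CPM. The groups overlapped for both, each with a log2 fold change of 0.10 ± 0.09 (SE, n = 3 per group). Between them, starting beside the Zmym5 start on the other strand, is 2410022M11Rik, a lncRNA of a bidirectional promoter. It had 1.66, 1.98 and 1.75 CPM in the controls and 2.48, 2.69 and 2.40 CPM in the mutants. Its log2 fold change was 0.49 ± 0.24, the largest in size among the 10 genes tested within 0.5 Mb, and its groups did not overlap, but its adjusted p was 0.8 in edgeR (unadjusted 0.0589 from the same fit across all genes).

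Connexins form gap junction channels, and Gjb6 encodes the astrocyte connexin Cx30 while Gjb2 encodes Cx26. Gjb6 had 128, 126 and 116 CPM in the controls and 138, 130 and 126 CPM in the mutants, with a log2 fold change of 0.09 ± 0.08. Gjb2 had 14.0, 17.4 and 17.1 CPM against 14.8, 16.2 and 12.1 CPM, with a log2 fold change of -0.17 ± 0.13. The groups overlapped for both genes and neither passed the test (adjusted p 0.931 and 0.92, edgeR). The remaining genes tested within 0.5 Mb, the centriole gene Cenpj and the germ cell gene Rnf17, had log2 fold changes of -0.14 ± 0.17 and 0.05 ± 0.41. Rnf17 held at most 18 counts in a library.

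**Figure D2:**
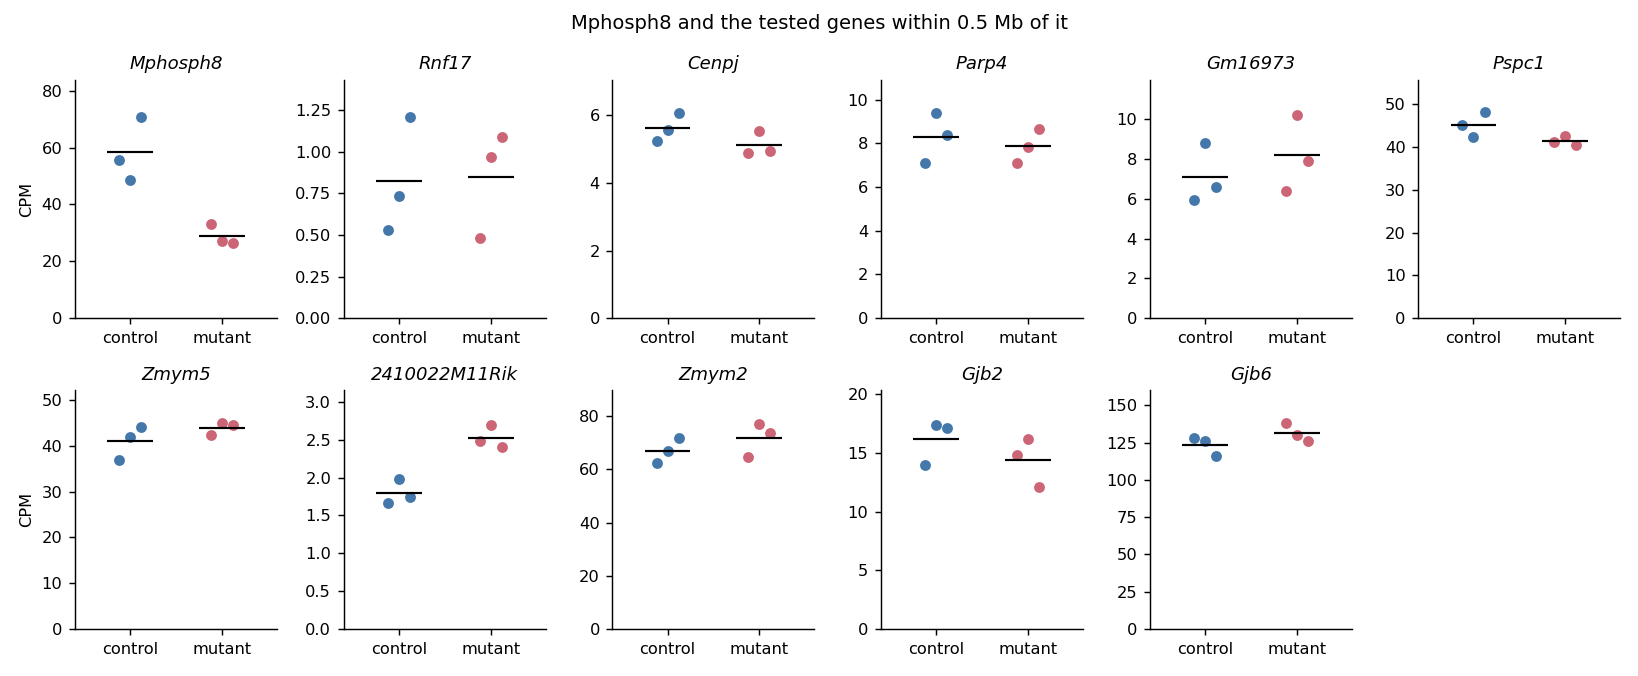
CPM per library (y axis, from 0) of Mphosph8 and of the 10 genes tested within 0.5 Mb of it, in 3 control (blue) and 3 mutant (red) libraries, with bars at the group means. Mphosph8 fell in every mutant library, and among its neighbours only 2410022M11Rik had groups that did not overlap, without passing the test.

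Of 34 genes within 1 Mb, 30 were tested, and Gm4032 was too low to be among them. For these 30 the data set limits, gene by gene, on the difference between mutants and controls. By the labels the controls carried 1 floxed copy with Nestin-Cre, so no intact locus was compared. The 95% interval of the log2 fold change lay within 2-fold in both directions for 29 of the 30 genes and within 1.5-fold for 25. The exception at 2-fold was Gm26751, a lincRNA whose exons lie wholly opposite those of another gene, with an interval from -0.73 to 1.01. Over all 16731 genes tested, the intervals of 15309 lay within 2-fold and of 12430 within 1.5-fold. Adcy4, which encodes an adenylyl cyclase, had the smallest unadjusted p among the 30. Its values were 8.78, 8.35 and 8.03 CPM in the controls and 7.44, 6.49 and 6.25 CPM in the mutants, so that the groups did not overlap. Its log2 fold change was -0.32 ± 0.14 (95% interval -0.62 to -0.02), the lowest of all 93 genes, with an adjusted p of 0.726 in edgeR. Eef1akmt1, which encodes a lysine methyltransferase of the elongation factor eEF1A, also had all mutant libraries below the controls, with 19.7, 15.7 and 16.5 CPM against 13.3, 15.5 and 15 CPM. Its log2 fold change was -0.24 ± 0.12 and its adjusted p 0.8.

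**Figure D3:**
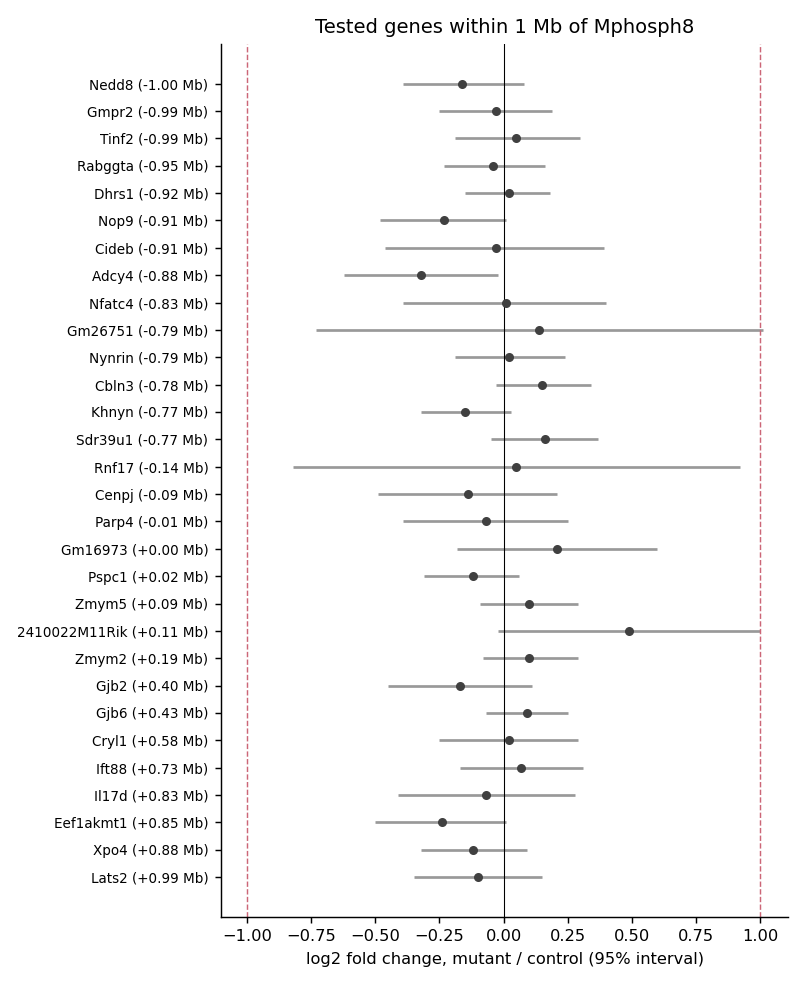
Log2 fold change of mutant over control with its 95% interval (x axis) for the 30 genes tested within 1 Mb of Mphosph8, listed by position with the distance in Mb. Dashed lines stand at a 2-fold change, and 29 of the 30 intervals lie between them.

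Farther out, 1.67 Mb from Mphosph8, Myh7 (ENSMUSG00000053093, 54970684 to 54994626, minus strand) encodes the slow cardiac myosin heavy chain. Its CPM values were 6.12, 5.64 and 4.32 in the controls and 9.67, 11.8 and 11.1 in the mutants, with means of 5.36 ± 0.931 and 10.9 ± 1.08 (SD, n = 3 each). The lowest mutant library was well above the highest control library. The log2 fold change came to 1.02 ± 0.16 (SE, 95% interval 0.69 to 1.35), at an adjusted p of 0.00205 in edgeR. Leaving out each library in turn kept it called, with log2 fold changes from 0.89 to 1.13, and without control replicate 3 the value was 0.89 with an adjusted p of 0.0211. Its neighbour Myh6, the alpha cardiac myosin gene, held 2 counts in the controls together and 5 in the mutants. Of the words of 50 bases in Myh7 transcripts, 20% occur in other genes, most of them in Myh6.

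Genes on the opposite strand of Myh7 were at low counts. As Mhrt and Gm31251 reached the minimum of 30 counts in the mutants and not in the controls alone, the direction of their values is partly set by that minimum. Mhrt, a noncoding RNA antisense to the end of Myh7, had 0.399, 0.366 and 0.472 CPM in the controls and 1.2, 0.821 and 1.31 CPM in the mutants. Its groups did not overlap, and its log2 fold change was 1.40 ± 0.39 with an adjusted p of 0.179 in edgeR. Gm31251, another antisense RNA of this gene, held 5, 10 and 3 counts in the controls and 11, 9 and 18 in the mutants, overlapped between groups and was too low for the main test. Exons on the other strand cover 39.9% of the exonic bases of Mhrt and 41.9% of those of Gm31251. The part of Myh7 reads in these counts was not tested.

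Cardiac muscle markers were low in both groups. Summed over Tnnt2, Myl2 and Actc1 they lay between 2.63 and 4.12 CPM in the controls and between 2.00 and 3.51 CPM in the mutants. Actc1 held 1 count in 1 library and 0 in the others, and the log2 fold change of Tnnt2, the only marker tested, was -0.14 ± 0.29 (SE, n = 3 per group).

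Trdc (ENSMUSG00000104876, 54142851 to 54148868, plus strand), the constant region of the T cell receptor delta chain, lies 2.52 Mb from Mphosph8. It held 5, 5 and 0 counts in the controls and 17, 19 and 26 in the mutants, that is 0.332, 0.366 and 0 CPM against 1.36, 1.42 and 1.89 CPM. Its controls alone would not have reached the minimum of 30 counts, so that it entered through the group in which it was high. The groups did not overlap, and the log2 fold change came to 2.71 ± 0.51 (SE, 95% interval 1.64 to 3.79), at an adjusted p of 0.0134 in edgeR. Without control replicate 3, the library with 0 counts, it was 2.13 with an adjusted p of 0.0555. The call was also lost without mutant replicate 2 (adjusted p 0.0517) and without mutant replicate 3 (adjusted p 0.0714). Of the words in Trdc transcripts, compared as for Myh7, 5.92% occur in transcripts of 945 other genes. Of the 224 shared words, 158 are found in Trdv5. The part of shared reads in the counts of Trdc was not tested. Trac, the constant region of the alpha chain, had 1.46, 1.98 and 1.35 CPM in the controls and 2.40, 2.24 and 1.89 CPM in the mutants. Its groups overlapped, giving a log2 fold change of 0.45 ± 0.27 and an adjusted p of 0.877.

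T cell markers other than Cd4 were at or near 0 in both groups. Cd3e, Cd3d, Cd4 and Cd8a summed to between 2.83 and 4.52 CPM in the controls and between 3.58 and 4.51 CPM in the mutants. Cd8a was at 0 in all libraries, Cd3d and Cd3e held at most 2 counts in a library, and Cd4, the only marker tested, had a log2 fold change of 0.13 ± 0.22. Of the 90 T cell receptor segments annotated in the interval, 88 were under the minimum, and together these 88 held 16 counts in the controls and 42 in the mutants.

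Gm43305 (ENSMUSG00000105703, 54292443 to 54297456, minus strand) lies 2.37 Mb from Mphosph8. It had 0.598, 1.25 and 0.877 CPM in the controls and 6.88, 2.31 and 2.62 CPM in the mutants, with means of 0.907 ± 0.324 and 3.94 ± 2.55 (SD, n = 3 each). Every mutant library was above the controls, and mutant replicate 1 was far above the other mutants. The log2 fold change came to 2.11 ± 0.41 (SE), at an adjusted p of 0.017 in edgeR. Without mutant replicate 1 it was 1.45 with an adjusted p of 0.0347, and the call was lost without control replicate 1 (adjusted p 0.108), without control replicate 3 (adjusted p 0.0936) and in limma-voom (adjusted p 0.0547). Of its words of 50 bases, 17.8% occur in transcripts of 18 other genes, so reads may be shared with copies elsewhere. Its promoter window shared a word of 30 bases with the windows of 5 other genes, while those of Myh7 and Mphosph8 shared none.

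**Figure D4:**
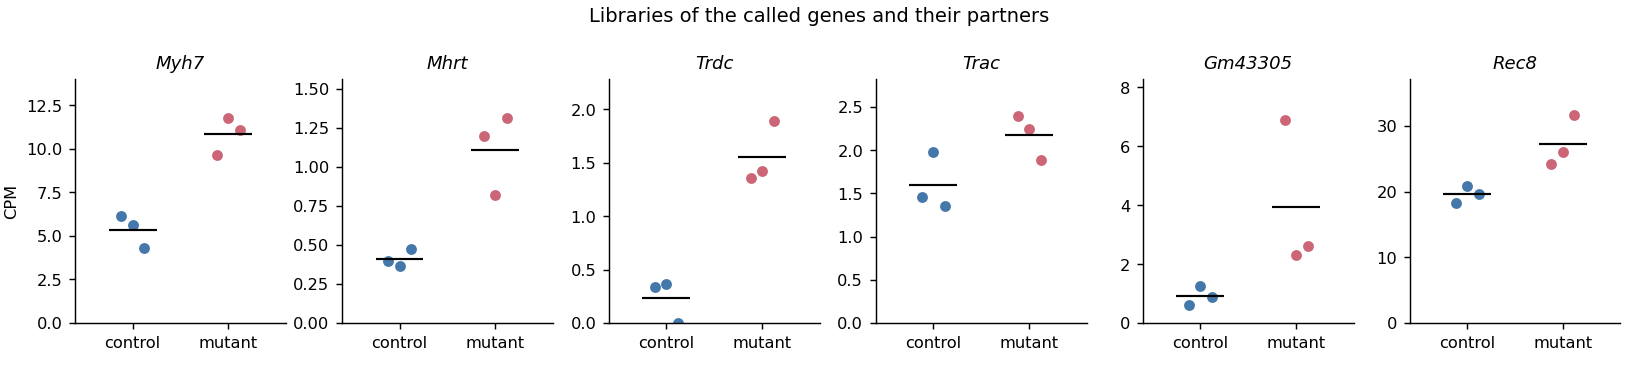
CPM per library (y axis, from 0) of Myh7, Mhrt, Trdc, Trac, Gm43305 and Rec8 in 3 control (blue) and 3 mutant (red) libraries, with bars at the group means. The groups do not overlap except for Trac, and Myh7, Trdc and Gm43305 passed an adjusted p of 0.05.

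Rec8, which encodes the meiotic cohesin subunit, was the gene closest to the threshold, 1.04 Mb from Mphosph8. Its values were 18.3, 20.9 and 19.6 CPM in the controls and 24.2, 26.1 and 31.6 CPM in the mutants. The groups did not overlap, and the log2 fold change was 0.48 ± 0.11 (95% interval 0.24 to 0.72), with an adjusted p of 0.0702 in edgeR. It was called without mutant replicate 1 (log2 fold change 0.56, adjusted p 0.0122), with no filter on low counts (adjusted p 0.00607) and with the replicate number as a block (adjusted p 0.0457). Over the 6 fits that left out a library, its adjusted p ran from 0.0122 to 0.57.

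The other genes of small unadjusted p moved by less or rested on few counts. Dad1, a subunit of the oligosaccharyltransferase that glycosylates proteins in the endoplasmic reticulum, had 107, 95.1 and 90.0 CPM in the controls and 81.2, 86.0 and 79.8 CPM in the mutants. Its groups did not overlap, giving a log2 fold change of -0.24 ± 0.08 and an adjusted p of 0.41 in edgeR. Zfhx2, a homeobox and zinc finger gene, had 49.5, 50 and 47.7 CPM against 55.6, 54.7 and 59.0 CPM, also without overlap, giving a log2 fold change of 0.20 ± 0.08 and an adjusted p of 0.614. Of its words of 50 bases, 17% are shared, nearly all with the antisense gene Zfhx2os. Ska3, a component of the spindle and kinetochore complex, held 15 to 22 counts per control and 24 to 29 per mutant library, giving a log2 fold change of 0.60 ± 0.28 and an adjusted p of 0.756.

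Grouped by role, no list held more than 1 called gene, and the 2 lists with a call were the T cell receptor segments and the cardiac myosins. At an unadjusted p under 0.05 the other lists held Zfhx2, Adcy4 and Ska3, each described above. In chromatin and transcription, 13 of 17 listed genes reached the minimum, 11 were tested and 0 were called, with a median log2 fold change of 0.036. Among them Acin1, which encodes a nuclear protein linked to apoptosis and splicing, had 213, 198 and 223 CPM in the controls and 203, 215 and 204 CPM in the mutants (log2 fold change -0.03 ± 0.08). Prmt5, which methylates arginines of histones and splicing proteins, had a log2 fold change of 0.01 ± 0.08, Sap18, a histone deacetylase-associated protein, of 0.04 ± 0.09, and Setdb2, a member of the family of lysine methyltransferases, of 0.04 ± 0.20.

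Of the proteasome and ubiquitin-like genes, 5 were tested and 0 were called. Nedd8, a ubiquitin-like modifier, had 131, 94.5 and 99.5 CPM in the controls and 89.1, 110 and 92.9 CPM in the mutants, with 1 control library above all others and a log2 fold change of -0.16 ± 0.11. Rnf31, a subunit of the ligase that builds linear ubiquitin chains, had a log2 fold change of 0.20 ± 0.10. In RNA processing and nuclear transport, 5 were tested, 0 were called and all 5 had negative log2 fold changes, from -0.23 (Nop9, a ribosome assembly factor) to -0.01 (Pabpn1, the nuclear poly(A)-binding protein). For Pabpn1 the sign turned with upper-quartile scaling. Of the 6 mitochondrial genes tested 0 were called, with log2 fold changes between -0.07 and 0.13, the highest that of Oxa1l, which inserts proteins into the inner membrane.

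The neuronal and membrane genes include the most abundant transcripts of the interval. On the scale of CPM per kb of exon, the mean level was highest for Slc22a17, a brain transporter of the organic cation family, at 169, followed by Nedd8 at 81.6, Cmtm5 at 58.5 and Jph4, a junctophilin of neurons, at 58.3, and lowest for Nrl at 0.065. Of the 12 tested in this list 0 were called, and their median log2 fold change was -0.055. Slc22a17 had 823, 751 and 792 CPM in the controls and 819, 693 and 703 CPM in the mutants, with a log2 fold change of -0.09 ± 0.10. Jph4 had a log2 fold change of 0.14 ± 0.09, and Cbln3, a cerebellin of cerebellar granule cells, of 0.15 ± 0.09. The 4 granule cell markers tested stood at a median log2 fold change of -0.06 and 0 were called.

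Cmtm5, a membrane gene of oligodendrocytes, had 81.6, 76.8 and 61.8 CPM in the controls and 71.6, 67.0 and 66.2 CPM in the mutants, giving a log2 fold change of -0.11 ± 0.10 and an adjusted p of 0.935 in edgeR. Oligodendrocyte markers had negative log2 fold changes for all 8 listed, with a median log2 fold change of -0.47 and 3 called lower in edgeR (Cldn11, Mal and Mog). In bulk tissue, fewer cells of a type and less RNA per cell cannot be told apart. The part of oligodendrocytes in the value of Cmtm5 was not tested.

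Signalling genes gave no calls. Of 7 listed growth factor, cytokine and Hippo genes 3 were tested and 0 were called. Fgf9, a fibroblast growth factor made by neurons, had 34.4, 27.2 and 30.5 CPM in the controls and 30.1, 31.3 and 23.5 CPM in the mutants, with overlapping groups and a log2 fold change of -0.12 ± 0.12. Lats2, a kinase of the Hippo pathway, had a log2 fold change of -0.10 ± 0.12. Of 4 cilium, centrosome and spindle genes tested 0 were called, and Ift88, needed to build cilia, had a log2 fold change of 0.07 ± 0.11. Ajuba, a LIM domain protein linked to Hippo signalling, had all mutant libraries below the controls, with 5.59, 5.13 and 5.13 CPM against 4.4, 4.4 and 4.36 CPM. Its log2 fold change of -0.27 ± 0.17 had an adjusted p of 0.897.

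The 12 genes below edgeR's filter held 30 to 59 counts in all. For 11 of them the groups overlapped, and only Gm4032 had every mutant library below the controls. None of the 12 was called when all genes of at least 30 counts were fitted. The smallest unadjusted p of that fit across all genes was that of Gm31251, 0.0229, with a log2 fold change of 1.19 ± 0.48 (SE, n = 3 per group) and an adjusted p of 0.63 in edgeR.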

How the data were processed

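Whole-brain RNA of 3 control and 3 mutant mice was measured by polyA-selected RNA sequencing with single reads of 50 bases. The authors trimmed reads (Trim Galore 0.5.0), removed contaminating sequence (Bowtie2 2.3.4.1), aligned to GRCm38 with STAR and counted per Ensembl gene with featureCounts (Subread 1.6.2). What they deposited are unnormalised read counts for each gene. Strand use is not given in the sources used here. Of 453 genes lying in full within opposite-strand exons, 27.6% had at least 10 counts, against 0.145% of 691 within same-strand exons and 33.6% of 42846 without overlap.

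Positions and biotypes came from GENCODE M21, which matched 54495 of 54532 identifiers, and promoters from RefSeq (87 of the 105 genes matched). All genes were fitted with edgeR 4.0.16 in R 4.3.3 (filterByExpr, TMM, quasi-likelihood F test, genotype as the only term), with Benjamini-Hochberg adjustment over all genes tested. CPM uses effective library sizes. Distances are between gene bodies. Shared words are runs of 50 bases found in transcripts of another gene. Steps were tested on simulated data. Depth was 12956880 to 15223424 counts, and genes under about 10 CPM have wide intervals. Every pair of replicates differed beyond sampling noise.

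The genes and lists were chosen with earlier results of these data known. Named genes are those tested within 0.5 Mb, the called genes, the 10 with the smallest p, the 3 largest and 3 smallest log2 fold changes, and per role list the highest CPM per kb and the smallest p. Others, such as Prmt5, Sap18, Setdb2, Jph4, Cbln3, Cmtm5, Lats2, Gm4032, Gm26751 and Gm31251, were chosen after their values were seen. Alternatives were RLE and upper-quartile factors, DESeq2 1.42.0, limma-voom (limma 3.58.1), other count filters, each library left out, and the replicate number as a block.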

Additional observations from a re-analysis of the deposited data

How the results depend on the processing

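The count of 3 called genes stayed at 3 with RLE or upper-quartile factors, DESeq2, a minimum of 30 counts or of 1 CPM in 3 libraries, and a fold limit of 1.5 or 2, and was 2 in limma-voom and 4 with no filter. The count ran from 1 to 4 with 1 library left out, and without control replicate 3 only Myh7 was called. Within 1 Mb of Mphosph8 it was 0 in every setting. Over all genes, 105 were called in the main fit, 98 in limma-voom and 242 with no filter. Without control replicate 3, 66 were called over all genes (0.387%), and without mutant replicate 1, 162 (0.949%). In the other fits with a library left out, 67 to 81 were called over all genes. Genes at an unadjusted p under 0.05 numbered 7 to 12 with a library left out. The median log2 fold change over all genes tested in the interval ran from -0.019 to 0.011. Mphosph8 ran from -1.13 to -0.85.

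Signs turned for values near 0, with 1 library left out, for Acin1 (-0.07 to 0.01), Dhrs1 (-0.01 to 0.05), Ift88 (0.00 to 0.15), Nedd8 (-0.25 to 0.00), Pabpn1 (-0.09 to 0.10), Parp4 (-0.17 to 0.02) and Rnf17 (-0.20 to 0.44), and for Pabpn1 with upper-quartile factors (0.00). The cause was not tested. The replicate numbers did not pair the samples (correlations of deviations 0.10, -0.05 and 0.08). With the replicate number as a block, 4 genes were called, Rec8 added, and 124 in place of 105 over all genes. With only genes of at least 30 counts in each group, an alternative chosen after seeing the data, 2 genes were called. Trdc, Gm43305 and Mhrt had low counts and wide intervals (SE 0.51, 0.41 and 0.39). For Gm43305 the mutant libraries also differed from each other, with 86, 31 and 36 counts.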

Other observations

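Of the 211 genes of the interval below the minimum of 30 counts, 88 are T cell receptor segments and 16 are mast cell protease and granzyme genes. The 16 annotated mast cell protease and granzyme genes held 29 counts over the 3 control libraries and 12 over the 3 mutant libraries, summed over all 16, and none reached the minimum. Mast cell markers outside the interval (Cpa3, Tpsb2 and Fcer1a) summed to between 0.199 and 0.586 CPM in the controls and between 0.373 and 0.436 CPM in the mutants, with 1 of the 3 at 0 in every library. The T cell receptor segments, constant genes included, summed to 2.06, 2.86 and 1.69 CPM in the controls and 4.96, 4.4 and 5.02 CPM in the mutants. These sums were not tested.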
